A study of Aspergillus niger with 6 samples.

Results

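The genes described here were abundant and changed little in all 6 RNA sequencing libraries of a citrate fermentation by the filamentous fungus Aspergillus niger. A gene was a member if it stood at 300 FPKM or more in every library and if its log2(FPKM + 1) spanned less than 1, which is about 2-fold, from its lowest to its highest library. FPKM is the number of sequenced fragments of a gene relative to its transcript length and to the size of the library. Of 9930 genes listed for all libraries, 280 were at 300 FPKM or more throughout, and 176 of these were members (62.9% of the 280, 1.77% of all genes). The other 104 abundant genes spanned 1 or more. Members were thus chosen by their FPKM in every library, and their levels and steadiness are a description and not a finding.

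Genes that a cell transcribes strongly at all times are often called housekeeping genes. In fungi they classically include genes for ribosomal proteins, translation factors, histones, the cytoskeleton and central sugar metabolism, and some of them serve as references when other transcripts are measured. In citrate fermentation the fungus takes sugar through glycolysis and secretes citrate, an intermediate of the tricarboxylic acid cycle, and the air supply governs how much oxygen reaches the mycelium. The files give each gene an identifier and a place on a contig (an assembled stretch of genome) and no name. None of the 10257 identifiers, and 0 of the 176 members, matched the 14404 genes of the table of names for assembly ASM285v2. Members are therefore given by identifier and position, without a function.

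All groups used strain H915-1, grown as pellets, and each group had 1 library. The groups were 48 h at an air supply of 1.5 vvm (air volume per culture volume and minute), and 6, 12, 24, 36 and 48 h at 3 vvm. The 1.5 vvm library had 6708034 fragments on listed genes, and those at 3 vvm had 5062817 to 6100480. The 1.5 vvm library had the largest FPKM sum over the listed genes, 1091269. The 6 h library followed at 1013647, and the others had 902578 to 940022. Leaving out any library let more genes pass the rule, with 206 without 1.5 vvm and 232 without 6 h. With 1 library per group no difference has a replicate check, and no p-value is given for a difference between 2 libraries. Intervals on fragments cover counting error only and hold no error between repeats. These fragments carried no molecular identifiers and need not be separate molecules, so the true counting error may be larger. Intervals on shares of genes treat genes as independent draws, which they need not be.

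Genes chosen for a small range are bound to take a nearly constant part of each library, so their share is given as a description. It was 21.6% of the fragments at 1.5 vvm, and 21.7%, 22.9%, 22.4%, 21.0% and 21.1% at 6, 12, 24, 36 and 48 h. The exact 95% binomial intervals reached at most 0.0362 percentage points to either side. The share of fragments was highest at 12 h and lowest at 36 h. As a share of the FPKM sum the order differed, with 29.5% at 12 h again the highest, 28.2% at 36 h and the lowest value, 26.5%, at 6 h. The 104 abundant genes of larger range took 13.4% at 1.5 vvm and 13.5% to 16.9% at 3 vvm.

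A few members made up much of that share. The members' mean level over the 6 libraries had a median of 705 FPKM, with 64 of 176 above 1000 FPKM and 14 above 3000 FPKM. The 10 members with the most fragments in a library took 12.0% of the fragments at 1.5 vvm and 12.2% to 14.3% at 3 vvm. Without the 2 most counted members of each library, the remaining 174 took 14.8% at 1.5 vvm and 14.1% to 15.1% at 3 vvm.

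The most abundant member was evm.model.unitig_2.1076 (contig unitig_2, 3499129 to 3499977). It stood at 44274 FPKM at 1.5 vvm, and at 40226, 45185, 52492, 53274 and 39518 FPKM at 6, 12, 24, 36 and 48 h. Its level was highest at 24 and 36 h and lowest at the first and last time, with 48 h the lowest. The gene spans 849 bp.

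The next members in level shared a course that differed from it. The gene on contig 1 from 2874224 to 2876395 stood at 22247 FPKM at 1.5 vvm, and at 25557, 29183, 27635, 18735 and 27578 FPKM at 6, 12, 24, 36 and 48 h. The gene evm.model.unitig_4.928 (unitig_4, 3214751 to 3233062) stood at 7315 FPKM at 1.5 vvm, and at 8788, 10470, 10360, 6818 and 9528 FPKM at the same times. Both were highest at 12 h, lowest at 36 h and lower at 1.5 than at 3 vvm at 48 h. By fragments relative to depth, the gene on contig 1 was at 0.852 times its 3 vvm level at 1.5 vvm (95% counting interval 0.848 to 0.857), and evm.model.unitig_4.928 at 0.749 times (0.744 to 0.755). The listed span of evm.model.unitig_4.928, 18312 bp, was the longest among the members.

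The following members in mean level had other courses. The gene evm.model.unitig_5.931 (unitig_5, 3035029 to 3036100) stood at 3593 FPKM at 1.5 vvm, and at 4184, 5707, 4272, 6118 and 4063 FPKM from 6 to 48 h. Its values at 12 and 36 h stood above the other 4 libraries. The gene evm.model.unitig_3.372 (unitig_3, 1340588 to 1341162) stood at 3399 FPKM at 1.5 vvm, and at 4218, 4880, 4859, 2824 and 2729 FPKM from 6 to 48 h. It was higher at the first 3 times than at 36 and 48 h.

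**Figure D1:**
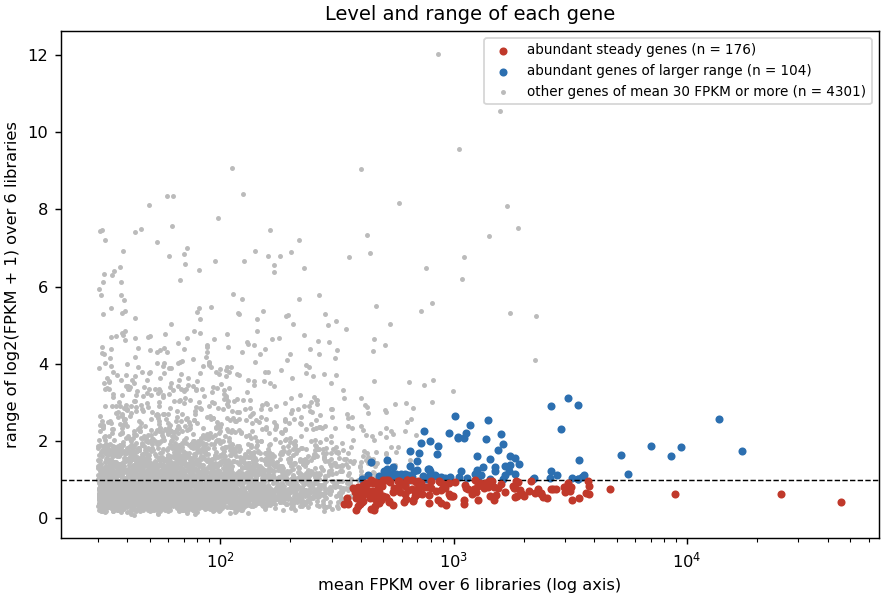
Mean FPKM over the 6 libraries (log axis) against the range of log2(FPKM + 1), one point per gene. The 176 abundant steady genes lie below the dashed limit of 1, and the 104 abundant genes of larger range lie above it. The most abundant gene drawn, at a mean of 45828 FPKM, is a member.

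Steadiness was not a matter of level alone. Of genes with a mean of 1 to 10 FPKM, 18.5% spanned less than 1 (95% interval 17.0 to 20.2). The share was 52.8% (51.1 to 54.4) at 10 to 50 FPKM, 55.2% (53.4 to 57.1) at 50 to 300 FPKM and 47.4% (41.9 to 53.0) at 300 to 1000 FPKM, while 50 of 100 genes (39.8 to 60.2%) spanned less than 1 at 1000 to 3000 FPKM. Of the 29 genes with a mean of at least 3000 FPKM, 14 spanned less than 1. The low share at 1 to 10 FPKM came with few fragments per gene, and the part of counting error in it was not tested.

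Within the limit, the members differed in how steady they were. The highest library exceeded the lowest by 1.15-fold to 1.99-fold, with a median of 1.62-fold and quartiles of 1.48 and 1.79. In log2 units 4 members spanned less than 0.25, 32 less than 0.5, and 37 spanned 0.9 or more. The coefficient of variation of depth-scaled fragments over the 6 libraries had a median of 19.3%, where counting alone would give a median of 1.99%. For 175 of the 176 members the variation was at least 2 times that from counting. The members thus varied by more than counting error, and the variation between repeated libraries of 1 group was not measured.

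The 3 members of smallest range lay on contig 1. The gene from 1763695 to 1764900 stood at 465 FPKM at 1.5 vvm, and at 438, 496, 430, 431 and 468 FPKM from 6 to 48 h. The gene from 281718 to 284494 stood at 397 FPKM at 1.5 vvm, and at 376, 358, 368, 414 and 381 FPKM from 6 to 48 h. The gene from 1601985 to 1603151 stood at 440.5 FPKM at 1.5 vvm, and at 447, 471, 450, 402 and 450 FPKM from 6 to 48 h. Their ranges were 0.20, 0.21 and 0.23 in log2 units. The fourth, evm.model.unitig_6.252 on unitig_6, also spanned 0.23. For the 3 on contig 1, the variation was 3.05, 3.53 and 2.55 times that from counting. For the genes from 281718 and from 1601985, the counting intervals of the ratio of 1.5 to 3 vvm at 48 h and of 48 to 6 h each held 1. For the gene from 1763695, of smallest range in FPKM, neither did. By fragments relative to depth its ratios were 0.893 (0.845 to 0.944) and 1.07 (1.01 to 1.14).

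The limits of the rule passed through a continuous distribution. Just inside the range limit, evm.model.unitig_0.580 (unitig_0, 1897116 to 1898105) stood at 326 FPKM at 1.5 vvm, and at 602, 580, 534, 303 and 302 FPKM from 6 to 48 h, a range of 0.99. Also at 0.99, the gene on contig 1 from 2628314 to 2628940 stood at 676 FPKM at 1.5 vvm, and at 915, 604, 562, 460 and 555 FPKM. Just outside were evm.model.unitig_1.1226 at 1.001 and evm.model.unitig_0.1226 at 1.004, and 32 abundant genes spanned 1 to 1.1. At the level limit, the members with the lowest minimum, evm.model.unitig_6.264 and evm.model.unitig_0.1583, had 300.5 and 301 FPKM in their lowest library. The genes just under it, evm.model.unitig_0.424 and evm.model.unitig_6.262, had 299.3 and 299 FPKM.

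Over time at 3 vvm, more members lay below than above their 6 h level, by little at 12 and 36 h. Against 6 h, the median difference of log2(FPKM + 1) over the 176 members at 12, 24, 36 and 48 h was -0.0345, -0.27, -0.0582 and -0.16. Over all genes kept (at least 1 FPKM in a library of the comparison) it was -0.0109, 0.0299, 0.0942 and 0.0408. Above their 6 h level were 78, 44, 76 and 60 of the 176 members at these times. Over the 104 abundant genes of larger range the medians were -0.0564, -0.32, -0.18 and -0.25, so the downward shift at 24 and 48 h was not particular to the members. Steady genes of lower level had 50 FPKM or more in each library, under 300 in at least 1, and a range below 1. Over these 1234 genes the medians were -0.0714, -0.0776, -0.0342 and -0.0651, a smaller shift at 24 and 48 h. The courses of single members differed: over the 15400 pairs of members, the correlation across the 6 libraries had a median of 0.19 (quartiles -0.23 and 0.58). With FPKM rescaled to a common sum per library, the members' medians were 0.0964, -0.103, 0.0504 and -0.0154, so the sign at 12 and 36 h turned with the scaling. The members' median minus that of all genes was -0.30 at 24 h as deposited and -0.29 after rescaling, and -0.20 at 48 h under either. A common factor per library moves both medians nearly alike, so this likeness was bound to hold and is no check on the scaling.

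Members 1.5-fold apart from 6 h were mostly lower at the later time. At 12 h 1 member was at least 1.5-fold higher (16% of all genes were) and 12 were at least 1.5-fold lower (16.4% of all genes). At 24 h 5 members were higher (22.7%) and 16 lower (19%). At 36 h 13 were higher (29.1%) and 22 lower (21.4%), and at 48 h 4 were higher (27.5%) and 24 lower (22.3%). The rule bars larger changes, so the members' counts were bound to fall below these percentages, and nothing is read from that. These comparisons share the 6 h library. With the common sum, 16 members were at least 1.5-fold higher at 48 h and 12 lower. Over all genes 2913 were then higher and 1632 lower, in place of 2482 and 2017 as deposited. The balance between the directions thus moved with the scaling, in members as in all genes.

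The members highest at 48 relative to 6 h were evm.model.unitig_2.612 (unitig_2, 1964526 to 1965569) and evm.model.unitig_1.1171 (unitig_1, 3985019 to 3985567). The first stood at 1060 FPKM at 1.5 vvm, and at 839, 759, 706, 1348 and 1364 FPKM from 6 to 48 h. Its values at 36 and 48 h stood above the other 4 libraries. The second stood at 632 FPKM at 1.5 vvm, and at 397, 446, 573, 623 and 634 FPKM from 6 to 48 h. It was higher at each time than at the one before. The lowest at 48 relative to 6 h were evm.model.unitig_0.580, given above, and evm.model.unitig_0.1401 (unitig_0, 4806785 to 4807617), which stood at 482 FPKM at 1.5 vvm and at 729, 559, 512, 429 and 368 FPKM from 6 to 48 h. By fragments relative to depth, both were at 0.504 times their 6 h level at 48 h, with counting intervals of 0.471 to 0.540 and 0.465 to 0.545.

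A trend over log2 time was fitted on recovered fragments of the 5 libraries at 3 vvm with edgeR's quasi-likelihood test. Of the 176 members, 0 rose and 8 fell at a Benjamini-Hochberg adjusted p below 0.05, where 9.73% of 8987 genes rose and 9.55% fell. At an unadjusted p below 0.05, 2 members rose and 26 fell, where 1668 of the 8987 genes rose and 1597 fell. The members were chosen for a small range in the same libraries, so these counts are given as a description. The spread in this test is the deviation of libraries from a line and not a spread between repeats.

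At 48 h the members were higher at 1.5 vvm than at 3 vvm as deposited, as most genes were. The median difference of log2(FPKM + 1), 1.5 minus 3 vvm, was 0.29 over the members and 0.28 over all 9787 genes kept, and 129 of the 176 members lay above 0. The 104 abundant genes of larger range had a median of 0.55, with 81 above 0. The 1234 steady genes of lower level had 0.00178, with 618 above 0. At least 1.5-fold higher were 37 members (35.9% of all genes were) and at least 1.5-fold lower were 4 (7.32%). With FPKM rescaled to a common sum, the medians were 0.0330 for members and 0.0395 for all genes, with 8 members higher and 12 lower. Over all genes 2708 were then higher and 1437 lower, in place of 3514 and 716 as deposited. Rescaling by TMM factors gave medians of 0.0381 for members and 0.0424 for all genes. With genes of every length pooled, the median shift at 1.5 vvm was thus of like size in members and in all genes. As deposited, it was larger in the abundant genes of larger range and near 0 in the steady genes of lower level. A common factor per library moves the members' median and that of all genes nearly alike, so rescaling is no further check on their likeness. At like listed span, the medians as deposited differed. Under 1000 bp the median was 0.41 in members and 0.53 in all genes kept. It was 0.11 and 0.35 at 1000 to 1999 bp, and 0.13 and 0.0351 from 2000 bp up. Against other genes of at least 30 fragments in each library, members were higher under 600 bp (0.60 against 0.53). They were also higher at 600 to 999 bp (0.39 against 0.35). Members were lower at 1000 to 1499 bp (0.17 against 0.22) and at 1500 to 1999 bp (-0.00718 against 0.0901). At 2000 to 2999 bp they were higher (0.13 against 0.0130). Under 1000 bp the sign of the gap thus turned with the genes compared. The 1.5 vvm values also come from another table than the 48 h values at 3 vvm.

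The library in which a member was highest followed this shift. As deposited, 81 members were highest at 1.5 vvm, while 34, 21, 9, 14 and 17 were highest at 6, 12, 24, 36 and 48 h. The lowest library was 24 h for 64 members and 1.5 vvm for 14. Among the steady genes of lower level (50 FPKM or more in each library, and under 300 in at least 1), 253 of 1234 were highest at 1.5 vvm and 153 were lowest at 24 h. Of the 104 abundant genes of larger range, 40 were highest at 1.5 vvm (38.5%, against 46.0% of the members) and 18 were lowest at 24 h. With the common sum, 50 members were highest at 1.5 vvm and 41 lowest there, and with TMM factors 37 and 47. The 24 h library stayed the most frequent lowest one for members, with 47 and 61 under these scalings.

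**Figure D2:**
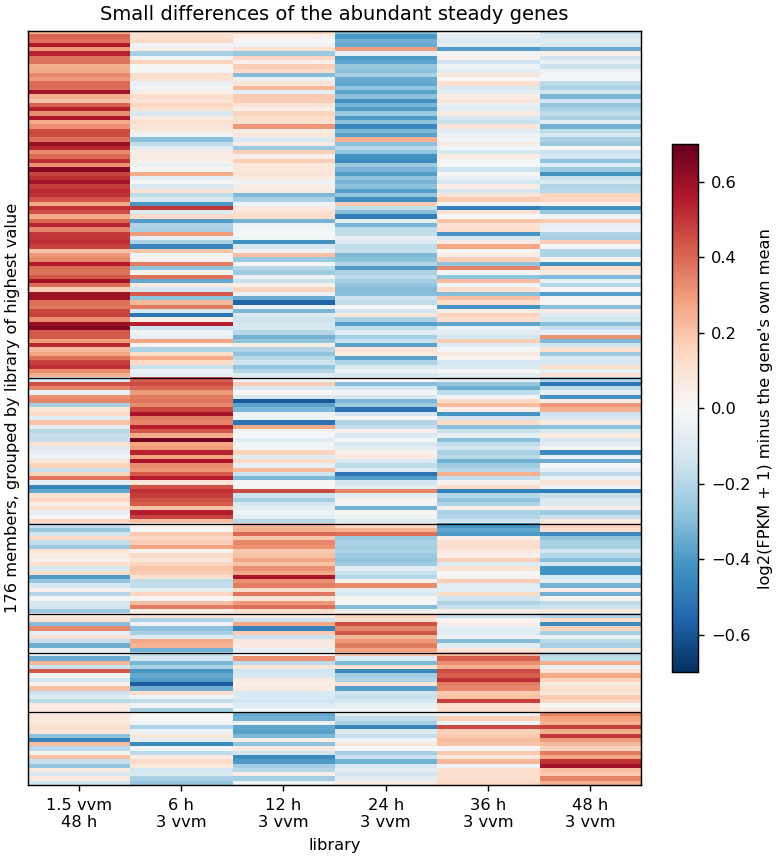
Each row is 1 of the 176 members and each column 1 library. The colour gives log2(FPKM + 1) minus the gene's own mean, as deposited, and black lines part the members by library of highest value. The top block holds the 81 members highest at 1.5 vvm, and most of its rows are blue at 24 h.

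The members farthest apart between the air supplies were of several kinds. The gene evm.model.unitig_4.440 (unitig_4, 1457996 to 1458747) stood at 923 FPKM at 1.5 vvm, and at 817, 590, 493, 492 and 464 FPKM from 6 to 48 h. The gene evm.model.unitig_1.231 (unitig_1, 845402 to 845928) stood at 1007 FPKM at 1.5 vvm, and at 879, 684, 595, 564 and 512 FPKM. Both were lower at each later time at 3 vvm, and both had their highest value at 1.5 vvm. By fragments relative to depth, 1.5 vvm was at 2.21 times the 3 vvm level for the first (2.04 to 2.40) and at 2.08 times for the second (1.77 to 2.45). In FPKM, which the rule used, these ratios were 1.99 and 1.97. By fragments both thus passed 2-fold, and for the first the whole interval lay above it.

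Lowest at 1.5 relative to 3 vvm were evm.model.unitig_4.402 (unitig_4, 1336174 to 1338113) and evm.model.unitig_0.1567 (unitig_0, 5364388 to 5366190). The first stood at 329 FPKM at 1.5 vvm, and at 420, 338, 370, 389 and 600 FPKM from 6 to 48 h. The second stood at 596 FPKM at 1.5 vvm, and at 772, 587, 651, 827 and 1026 FPKM. Both had their highest value at 48 h and 3 vvm. For the first that library stood apart from the other 5, while the second ranged from 587 to 827 FPKM among the other 5. The fragment ratios of 1.5 to 3 vvm were 0.541 (0.519 to 0.563) and 0.601 (0.579 to 0.624).

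Within the members, these differences went with the length of the gene. Span is the distance from the first to the last listed base, and the rule did not use it. For the 80 members under 1000 bp, the median difference of 1.5 minus 3 vvm at 48 h was 0.41 and 72 lay above 0. It was 0.11 for the 69 members of 1000 to 1999 bp, with 41 above 0, and 0.13 for the 27 members of 2000 bp or more, with 16 above 0. Spearman's rho between span and difference over the 176 members was -0.45, given as a description, since all points come from the same pair of libraries. A common factor per library does not alter this rank relation.

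Time showed a relation of the other sign, except in the shortest members. At 24 minus 6 h the medians were -0.35 under 1000 bp, -0.25 at 1000 to 1999 bp and -0.0301 at 2000 bp or more, and rho was 0.23. The 17 members under 600 bp went against it, with a median of 0.0541, while the 63 members of 600 to 999 bp had -0.36. For 1.5 minus 3 vvm these classes had medians of 0.60 and 0.39. Fragments relative to depth, which involve no length, gave medians under 1000 bp of 0.45 for 1.5 minus 3 vvm and -0.28 for 24 minus 6 h, and of 0.13 for 24 minus 6 h in the 17 members under 600 bp.

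The relation with span was not particular to these genes. For 1.5 minus 3 vvm, rho was -0.33 over the 104 abundant genes of larger range, -0.40 over the 1234 steady genes of lower level and -0.25 over all 9787 genes kept. Level went with the difference as well. Under 1000 bp, the median of 1.5 minus 3 vvm was 0.55 for the 38 members with a mean of at least 1000 FPKM and 0.31 for the 42 below it. From 1000 bp up, it was 0.31 for the 26 members with at least 1000 FPKM and 0.0622 for the 70 below it. No measure of RNA quality or fragment length per library was used here.

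**Figure D3:**
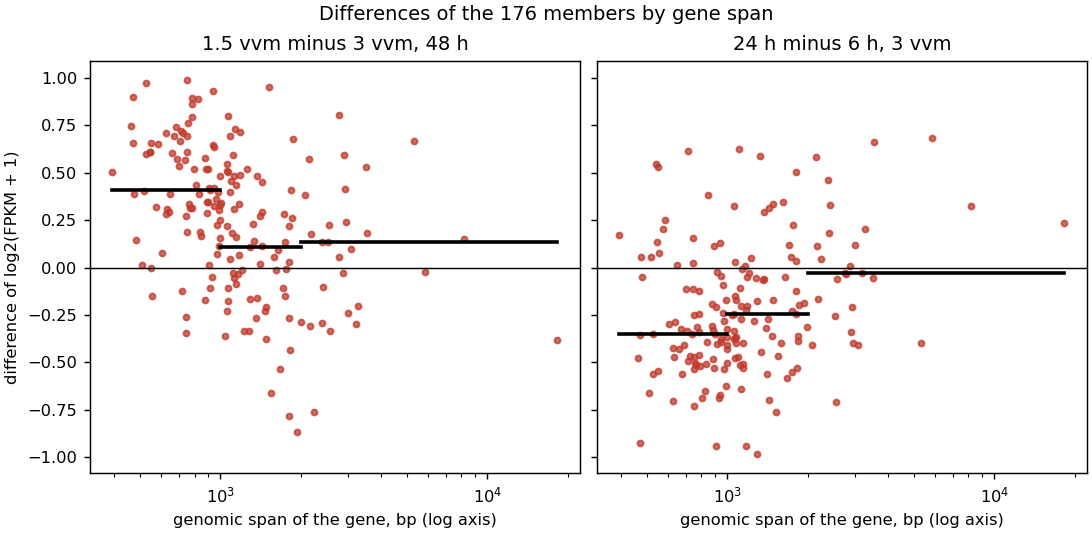
Genomic span (log axis) against the difference of log2(FPKM + 1) for the 176 members, 1.5 minus 3 vvm at 48 h on the left and 24 minus 6 h on the right. Black bars give medians of the span classes under 1000, 1000 to 1999 and from 2000 bp. The left medians are 0.41, 0.11 and 0.13, and the right ones -0.35, -0.25 and -0.0301. The 17 members under 600 bp alone had a right median of 0.0541.

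The members were short genes. Their spans had a median of 1066.5 bp (quartiles 782.5 and 1625), against 1522 bp (1041 and 2127) for the other 9754 genes. Under 1000 bp were 45.5% of the members and 22.6% of the other genes. The 104 abundant genes of larger range were as short, with a median of 966 bp, while the steady genes of lower level had 1525.5 bp. FPKM divides by length, so a level limit in FPKM is not wholly independent of span.

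FPKM and fragments together imply the length by which the authors' software divided, if fragments on listed genes are taken as the library size. The library size behind the deposited FPKM is not given, so this length may be off by a factor. This length had a median of 525 bp in members and of 1124 bp in the other genes. It is an effective length, which software of this kind shortens by about the fragment size, and it also carries any correction for uneven coverage. The span minus this length therefore holds introns and other parts not counted, plus that shortening.

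At like span below 3000 bp, this remaining part was largest in members. Among genes of 600 to 999 bp its median was 507 bp in 63 members, 455 bp in 35 abundant genes of larger range, 380 bp in 234 steady genes of lower level and 300 bp in 1354 other genes. At 1000 to 1499 bp the medians were 473, 391, 390 and 315 bp, in the same order. At 1500 to 1999 bp the members had 439 bp and the other genes 386 bp. At 2000 to 2999 bp the 18 members, at 594 bp, were nearly level with the 12 abundant genes of larger range, at 590 bp. Under 600 bp the members had 367 bp and the other genes 258 bp. There the abundant genes of larger range had 324 bp, less than the 331 bp of steady genes of lower level. From 3000 bp up, the 9 members had 1871 bp, less than the 2132 bp of the 6 abundant genes of larger range. The FPKM of a gene is higher for a given number of fragments when this length is short, so choosing by FPKM favours such genes, and its part in the difference was not tested.

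**Figure D4:**
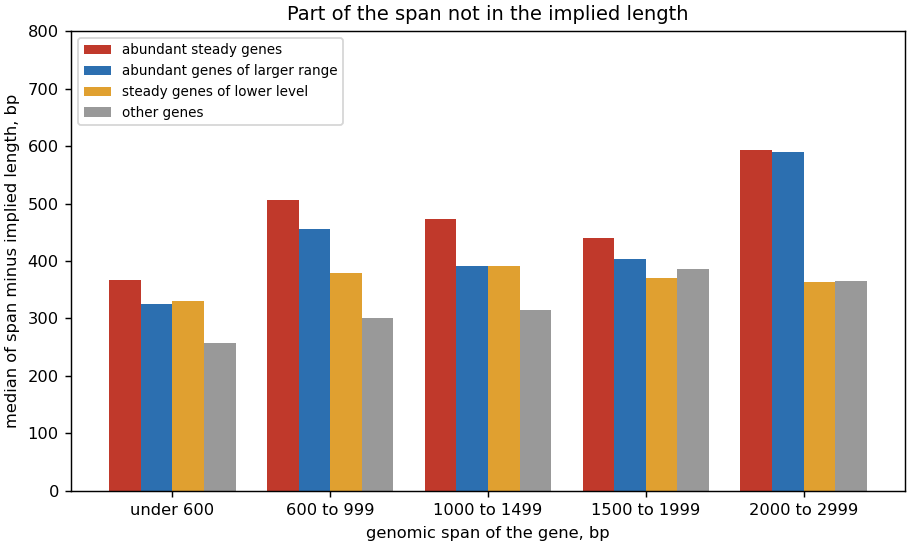
Median of genomic span minus the implied length, in bp, by class of span, for members, abundant genes of larger range, steady genes of lower level and all other genes. Bars start at 0. Spans of 3000 bp or more, where members were not highest, are left out. Members have the tallest bar in each class drawn, at 507 bp for spans of 600 to 999 bp against 300 bp in other genes. At 2000 to 2999 bp they are nearly level with abundant genes of larger range (594 and 590 bp).

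Members lay on each of the 8 long contigs (at least 100 listed genes) and away from contig ends. Between 0.971% of listed genes (11 members on unitig_3, 95% interval 0.486 to 1.73) and 2.62% (37 members on unitig_1, 1.85 to 3.59) were members. Within 100 kb of an end of a long contig, 0 of 432 genes were members, against 176 of 9480 genes elsewhere (1.86%, 1.59 to 2.15). An end here is the first base or the last listed gene. The 0 near ends allows a share of up to 0.694% at 3 counts, and its exact 95% interval reaches 0.850%. Abundant genes as a whole were rare there, since 1 of these 432 genes and 279 of the 9480 were at 300 FPKM or more throughout. The files do not say how contig ends lie relative to chromosome ends.

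Most members stood alone, and some lay side by side. With the nearest listed gene no more than 2 kb away, 15 of 176 members (8.52%, 95% interval 4.85 to 13.7) were next to another member. Of the 104 abundant genes of larger range, 9 were next to a member (8.65%, 4.03 to 15.8), and of the steady genes of lower level 65 of 1234 (5.27%, 4.09 to 6.66). Over all listed genes it was 2.59%. Counting the next listed gene at any distance, 20 members formed 7 pairs and 1 run of 6.

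The run of 6 lay on unitig_6 and held mostly members near the level limit. It began with evm.model.unitig_6.264 (1018567 to 1020326), at 369 FPKM at 1.5 vvm and 300.5, 350, 351, 386 and 371 FPKM from 6 to 48 h. Its neighbours evm.model.unitig_6.265 to evm.model.unitig_6.267 and the last gene had means of 352 to 396 FPKM. The fifth, evm.model.unitig_6.268 (1032316 to 1033398), stood far above them at 3987 FPKM at 1.5 vvm, and at 3641, 3749, 2765, 3421 and 3027 FPKM. Between it and the last gene, evm.model.unitig_6.269 (1128589 to 1131797), lay 95190 bp with no listed gene. The gene just under the level limit, evm.model.unitig_6.262 (1007045 to 1008530), lies on the same contig a little before the run.

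A pair on unitig_3 held much more abundant members. The gene evm.model.unitig_3.372 lay 639 bp from another member (start of the pair 1339364, end 1341162). This neighbour stood at 3637 FPKM at 1.5 vvm, and at 3026, 3169, 3605, 2252 and 2319 FPKM from 6 to 48 h. Each gene of the pair was higher at 6, 12 and 24 h than at 36 and 48 h. The files do not say how fragments of like sequence were assigned.

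Genes next to members were themselves steadier than other genes. Of 250 genes within 2 kb of a member that were not members, 245 had a mean of at least 1 FPKM, and 59.2% of these spanned less than 1 (95% interval 52.7 to 65.4). Of 8688 genes at that level that were neither members nor next to one, 43.2% did (42.2 to 44.3). Their level was also higher, with a median mean of 46.1 FPKM against 24.5. Within a class of level the difference was smaller. At 10 to 50 FPKM the shares were 67.0% of 94 next genes (56.6 to 76.4) and 52.4% of 3473 others (50.7 to 54.1), and at 50 to 300 FPKM they were 67.9% of 106 (58.2 to 76.7) and 54.7% of 2706 (52.8 to 56.6). Since genes side by side need not be independent, the true uncertainty is wider.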

How the data were processed

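Per the labels' protocols, RNA came from frozen pellets and libraries from the Illumina TruSeq RNA kit. Cufflinks 2.1.1 and TopHat2 2.0.9 stand in the submitters' processing notes. The build and annotation used were not given in these sources. The authors deposited FPKM values per library in 2 tables, merged here by locus. The 24 h FPKM was identical at 9930 of 9930 shared loci. Per the file headers 1 set of columns holds counts, but it is a deposited signal, scaled by the authors to 1 total per table. Dividing by the smallest step gave whole fragments (within 0.1) for at least 99.9% of values per library. Another 4 value columns matching no label were not used. A share of 0 allows up to 3 counts of its total.

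Members, groups and measures were chosen with earlier results of these data known. Named genes were those highest in mean, smallest in range, nearest the limits, farthest apart in a comparison, or in the longest run. Starts count from 1. The trend used edgeR 4.0.16 in R 4.3.3 (TMM, at least 15 fragments in total), and other steps Python 3.11.15. Both were tested on simulated data. Alternatives were other limits, pseudocounts, scalings, filters, and leaving out each library.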

Additional observations from a re-analysis of the deposited data

How the results depend on the processing

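The number of members, 176, depended most on the limits of the rule. It was 276 at a level limit of 200 FPKM, 99 at 500 FPKM, and 101 at a range limit of 0.75. Leaving out 1 library gave 186 to 232 members, with 232 without 6 h and 206 without 1.5 vvm. After rescaling to a common sum 162 of the 176 were still members, and with TMM factors 161. As a share of the FPKM sum, members took 27.1% at 1.5 vvm and 26.5%, 29.5%, 28.3%, 28.2% and 27.4% from 6 to 48 h.

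Directions within the limit depended on the scaling. With a common sum the members' median log2 differences from 6 h were 0.0964, -0.103, 0.0504 and -0.0154 at 12, 24, 36 and 48 h, and 0.0330 for 1.5 minus 3 vvm. With TMM factors they were -0.0213, -0.32, -0.14, -0.20 and 0.0381. Genes at least 1.5-fold higher and lower are given for 12, 24, 36 and 48 h and for 1.5 vvm, in this order. With the common sum members numbered 5 and 6, 10 and 5, 16 and 16, 16 and 12, and 8 and 12. All genes numbered 1840 and 1129, 2579 and 1295, 2950 and 1639, 2913 and 1632, and 2708 and 1437. With TMM factors members numbered 1 and 11, 2 and 22, 8 and 26, 4 and 27, and 8 and 10. All genes then numbered 1471 and 1438, 1891 and 1862, 2406 and 2130, 2374 and 2136, and 2708 and 1414. All genes lower at 1.5 vvm were 1437 with the common sum and 1414 with TMM factors, in place of 716. Members highest at 1.5 vvm were 50 and 37, alternatives added after the data were seen. The edgeR trend called 874 genes rising and 858 falling, in place of 2482 and 2017 at 1.5-fold at 48 h, and 0 and 8 members. Of 129 alternative values, 90 stayed within 1.5 times, or within the counting interval or rounding. No paired analysis was possible because each group had 1 library. Depth limited the least counted member most: evm.model.unitig_4.159, with 168 fragments in its lowest library, varied by 13.1% between libraries, where counting alone would give 7.0%.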
